A study of Mus musculus with 9 samples.

Results

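The response to E2 (estradiol, the main ovarian estrogen) was measured in FVB MOE cells, a monoclonal line of secretory epithelial cells from the oviduct of FVB mice, by comparing the 3 samples treated with E2 with the 3 that received only the solvent DMSO. These are 6 of the 9 RNA sequencing samples of the study, and the pairing of an E2 sample with a DMSO sample follows the replicate number in the labels. In every condition the cells were first starved of hormone for 48 h. They were then treated for 24 h with 0.1% DMSO alone, with 1 nM E2, or with 100 nM 4OHT (4-hydroxytamoxifen, the active metabolite of tamoxifen), and the 4OHT samples served here to estimate the spread and as values set beside the others. The line is 1 clone grown in culture, and nothing in the labels says whether the samples of a condition came from separate cultures, so that p-values measure the spread between these samples only.

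Estrogen acts mainly through nuclear receptors that bind DNA directly or through partners such as AP-1, and that recruit coactivators or corepressors to raise or lower transcription. In the reproductive tract it is known to drive growth of the uterine epithelium, to induce the progesterone receptor, and in the oviduct to support secretion and ciliation. Genes that fall with estrogen have drawn less attention than those that rise, and they are given the most room below.

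The unit of expression was FPKM, the fragments of a gene scaled to its transcript length and to the depth of the library. Of 23332 gene rows, 11094 were tested, those that reached 1 FPKM in 3 or more samples and were at an exact 0 in none. All fold changes are on the log2(FPKM + 1) scale, on which the change of a gene near 1 FPKM is understated. The files hold no read counts, and the counting precision behind a value was not computed here. Summed over all rows, the libraries held 522517 to 588640 FPKM, with 11037 to 11175 rows at 1 FPKM or more. The markers of the secretory oviduct epithelium *Pax8*, *Wt1*, *Krt7*, *Krt8*, *Krt18* and *Krt19* were at 26.3 FPKM or more in every sample, whereas the adhesion genes *Epcam* and *Cdh1* reached at most 0.138 and 0.422 FPKM and the mucin *Muc1* at most 0.510. *Ovgp1*, the oviduct glycoprotein, was low, with FPKM of 1.99, 2.11 and 2.61 in DMSO and of 1.49, 2.01 and 1.44 in E2, lower in each pair (log2 fold change -0.29, adjusted p = 0.059). The summed FPKM of 12 immune markers ran from 24.5 to 34.9 in DMSO and from 31.9 to 44.4 in E2, with *Ptprc*, the pan-leukocyte marker, at most 0.0271. Most of the sum was *Cd14*, at 26.5, 16.6 and 14.9 in DMSO and at 37.0, 23.8 and 22.4 in E2. Of the 3 immune markers tested 1 rose, *Cd14*, and 0 fell, and *Cd68* and *Csf1r* lay between 3.01 and 5.94. For 10 endothelial markers the sums were 3.09 to 4.38 in DMSO and 5.12 to 8.09 in E2, with *Cdh5* at most 0.100 and *Tie1* and *Cldn5* listed at 0. The 2 endothelial markers tested rose. *Egfl7* went from 3.08, 1.99 and 2.02 in DMSO to 6.11, 3.78 and 3.46 in E2, and *Kdr* from 0.640, 0.445 and 0.711 to 1.21, 1.01 and 1.28. For 13 stromal and muscle markers the sums were 956 to 1468 in DMSO and 1325 to 1776 in E2, most of it the actin gene *Acta2*. *Thy1* was listed at 0 and *Col1a2* and *Col3a1* were at most 0.00974 and 0.00907, while *Dcn*, the matrix proteoglycan decorin, went from 5.87, 0.652 and 0.416 to 21.0, 11.9 and 6.05. The part of these markers in the results was not tested. The estrogen receptor α gene *Esr1* had FPKM of 12.4, 5.98 and 5.995 in DMSO and of 16.3, 9.32 and 8.31 in E2, and *Esr2*, the gene of receptor β, was at most 0.130 FPKM. *Esr1* rose in each pair (log2 fold change 0.45, SE 0.051, adjusted p = 0.000612), and replicate 1 was high for it in all conditions.

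With the replicate number as a block, 785 of the 11094 genes were lower in E2 than in DMSO (7.08%) and 1377 were higher (12.4%) at an adjusted p under 0.05. The falls were small: their median log2 fold change was -0.23, the quartiles of their size were 0.18 and 0.29, 30 reached 0.5 and 1 reached 1. Among the rises the median was 0.25, 247 reached 0.5 and 68 reached 1. Within the pairs the medians were -0.18, -0.27 and -0.22 for the fallen genes and 0.24, 0.28 and 0.25 for the risen genes in replicates 1, 2 and 3. The ranges of the 3 E2 and 3 DMSO samples did not overlap for 295 of the fallen genes (37.6%) and for 691 of the risen genes (50.2%). Over all rows tested, 6.12% were lower and 9.18% higher without overlap. The genes that fell were a little shorter and richer in GC (median transcript length 3159 bases and 52.6% GC) than all genes tested (3315 bases and 49.7%), and those that rose were longer and poorer in GC (3567 bases and 48.7%).

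These calls rest on the pairing. Without the block 64 genes were higher (0.577%) and 3 were lower (0.027%), namely *Mest*, *Lmcd1* and *Pdk4*, and every other fallen gene named below passed only with the block. The share of calls that were falls also moved with the scaling between samples, from 36.3% on the deposited values to 52.7% with upper-quartile scaling (12.1% of genes lower, 10.8% higher), 50.5% with equal FPKM totals (11.1% and 10.9%) and 41.9% with median centring (8.91% and 12.3%), while 765 of the 785 falls passed under all 3 of these. After correcting each sample for GC and length 8.46% were lower and 14.1% higher. Of the 785, 194 passed in each of the 6 fits that left out 1 DMSO or E2 sample. The count of falls was 278 without DMSO replicate 2, 244 without DMSO replicate 3 and 414 without E2 replicate 3, and that of rises was 754, 749 and 899.

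**Figure D1:**
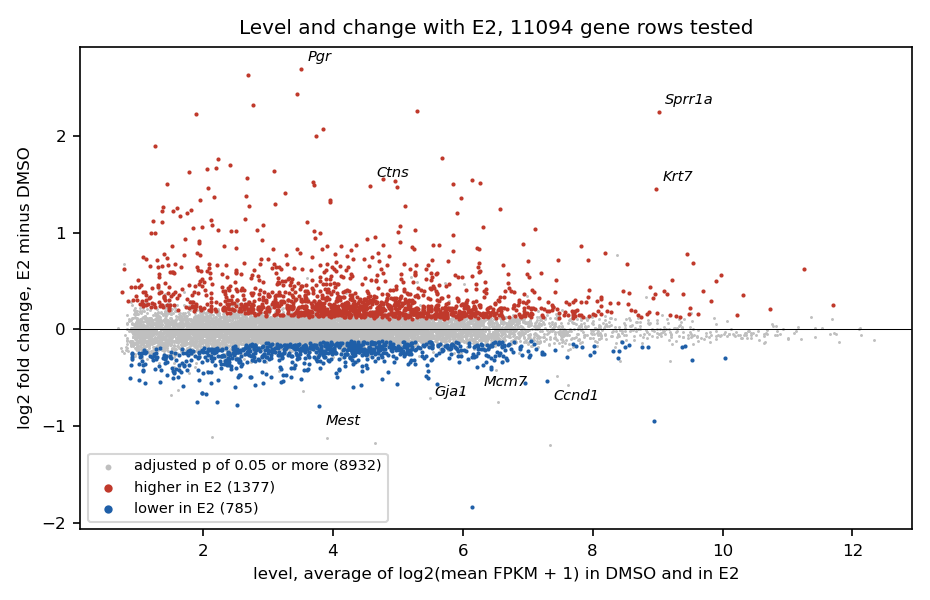
Each point is 1 of the 11094 gene rows tested, with its level (the average of log2(mean FPKM + 1) in DMSO and in E2) on the horizontal axis and its log2 fold change, E2 minus DMSO, on the vertical axis. The 785 genes lower in E2 (blue) lie in a narrow band under 0, and the 1377 higher genes (red) reach up to 2.70.

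*Mest*, an imprinted gene expressed from the paternal copy, was the gene with the largest fall apart from rows of short RNAs. It lies on chromosome 6 of GRCm38 from 30723547 to 30748465. Its FPKM was 14.2, 18.5 and 18.98 in DMSO, 8.32, 9.59 and 10.6 in E2, and 15.3, 16.9 and 19.2 in 4OHT for replicates 1, 2 and 3. All 3 E2 samples were below all others, and the 4OHT samples lay among the DMSO samples. In E2 the mean was 55.1% of that in DMSO (log2 fold change -0.79, SE 0.047, adjusted p = 2.27e-05), and without the block the adjusted p was 0.0385. The other falls that passed without the block had the same form. *Pdk4*, a kinase that holds back entry of pyruvate into the mitochondrial cycle, had FPKM of 10.0, 11.3 and 9.68 in DMSO and 6.55, 7.08 and 6.79 in E2 (log2 fold change -0.54, SE 0.043, adjusted p = 1.00e-04, and 0.0138 without the block). *Lmcd1*, a LIM-domain cofactor of transcription, had 7.41, 8.50 and 8.73 in DMSO and 5.15, 5.06 and 5.51 in E2 (log2 fold change -0.56, SE 0.073, adjusted p = 0.00129, and 0.0290 without the block). No E2 sample of either gene reached the lowest DMSO sample.

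Of the lists examined, ribosome biogenesis held the most genes that fell. This is the nucleolar work of transcribing, cutting and modifying ribosomal RNA and assembling it with protein. Of 76 measured genes of the list 29 fell (38.2%) and 0 rose, and 73 of the 76 had a negative log2 fold change. The median over the list was -0.15, against -0.0027 over all genes tested. *Mybbp1a*, a nucleolar protein that binds Myb, had FPKM of 60.3, 93.2 and 71.3 in DMSO and of 54.6, 69.2 and 55.3 in E2. Its replicate 2 was highest in both conditions and the ranges overlapped, but each E2 sample was below its own DMSO sample (log2 fold change -0.31, SE 0.054, adjusted p = 0.00531). *Nop56*, a core protein of the particles that methylate ribosomal RNA, went from 78.9, 115 and 90.4 to 71.1, 85.1 and 73.5 (log2 fold change -0.29, SE 0.050, adjusted p = 0.00496). *Rrp9*, which binds the U3 small nucleolar RNA, fell by 0.40 on the log2 scale, and *Lyar*, a nucleolar growth regulator, by 0.28.

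Parts of the same machinery on the RNA polymerase side moved less. Of 26 subunits of RNA polymerases I and III, a list added after the data were examined, 3 fell (11.5%, against 7.08% of all genes tested) and 0 rose. The falls were those of *Polr1b* by 0.23, *Polr1e* by 0.22 and *Polr1d* by 0.13 on the log2 scale. The proteins of the finished cytoplasmic ribosome were not called in either direction: 0 of 74 passed at an adjusted p under 0.05 in the limma fit, 70 of them had a negative log2 fold change, and the median was -0.056. With upper-quartile scaling 18 of these 74 were called lower, and with equal totals 25. Of 73 genes of the mitochondrial ribosome and import 3 fell (4.11%) and 0 rose, against 17 and 16 falls under those 2 scalings.

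Genes for copying DNA came next by count. Of 53 S phase genes 12 fell (22.6%) and 0 rose, and 51 had a negative log2 fold change (median -0.18). *Mcm7*, a subunit of the helicase that opens DNA for replication, had FPKM of 72.7, 102 and 80.1 in DMSO, of 64.2, 65.9 and 62.4 in E2 and of 78.1, 98.3 and 79.9 in 4OHT. Every E2 sample was under every DMSO sample, and the mean in E2 was 75.4% of that in DMSO (log2 fold change -0.39, SE 0.072, adjusted p = 0.00698). *Mcm3*, of the same helicase, fell by 0.33, *Tk1*, the thymidine kinase of S phase, by 0.34 and *Gins1*, a helicase cofactor, by 0.31 on the log2 scale. Of 56 genes of mitosis 11 fell (19.6%) and 0 rose, and all 56 had a negative log2 fold change (median -0.16). *Cdc20*, which activates the ligase that starts anaphase, had FPKM of 44.9, 58.7 and 42.6 in DMSO and of 41.2, 37.8 and 32.9 in E2. The groups did not overlap (log2 fold change -0.37, SE 0.086, adjusted p = 0.0193). *Mybl2*, a transcription factor of late cell cycle genes, fell by 0.35, *Espl1*, the protease separase, by 0.27 and *Ckap2*, a spindle protein, by 0.25 on the log2 scale. Of 43 nuclear pore and transport genes 7 fell (16.3%) and 0 rose. *Nup210*, a membrane protein of the pore, was lowest in replicate 1 of both conditions, with FPKM of 1.47, 2.67 and 3.12 in DMSO and 0.884, 1.66 and 2.00 in E2 (log2 fold change -0.44, SE 0.056, adjusted p = 0.00112).

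The growth genes did not fall equally in the 3 pairs. The S phase list had a median log2 change of 0.035 in replicate 1, -0.38 in replicate 2 and -0.18 in replicate 3, and the M phase list of 0.032, -0.33 and -0.16. For ribosome biogenesis the medians were -0.045, -0.24 and -0.15. The negative fitted values of most members thus did not mean a fall in every pair. Lower in all 3 pairs were 17 of 53 S phase, 21 of 56 M phase and 54 of 76 ribosome biogenesis genes, beside 24.5% of all genes tested. The same lists in 4OHT, which shares the DMSO samples, had medians of 0.13, 0.014 and -0.0014 for S phase, of 0.090, -0.017 and 0.039 for M phase and of 0.079, -0.0035 and 0.013 for ribosome biogenesis. The difference between E2 and DMSO was thus least in replicate 1 for these lists.

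Which sample was left out changed many of these counts, though not all, by far more than 1.5 times. Without DMSO replicate 2 the numbers of fallen genes were 4 for ribosome biogenesis, 3 for S phase, 1 for M phase and 2 for the nuclear pore. Without DMSO replicate 3 they were 2, 3, 1 and 2. Without E2 replicate 2 they were 10, 5, 5 and 4, and without E2 replicate 3 they were 11, 5, 3 and 2. Leaving out E2 replicate 1 raised them to 37, 33, 40 and 15, and leaving out DMSO replicate 1 gave 30, 26, 21 and 7. *Mybbp1a*, *Nop56*, *Mcm7*, *Espl1* and *Nup210* passed in all 6 of these fits. *Mcm3*, *Gins1*, *Cdc20*, *Mybl2* and *Polr1b* were lost without DMSO replicate 2 and without DMSO replicate 3, *Ckap2* also without E2 replicate 3, *Rrp9* also without E2 replicate 2, and *Tk1* and *Lyar* also without E2 replicate 2 or 3. *Polr1e* passed only without E2 replicate 3 and *Polr1d* only without E2 replicate 1. Without the block none of the members of these 4 lists passed.

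**Figure D2:**
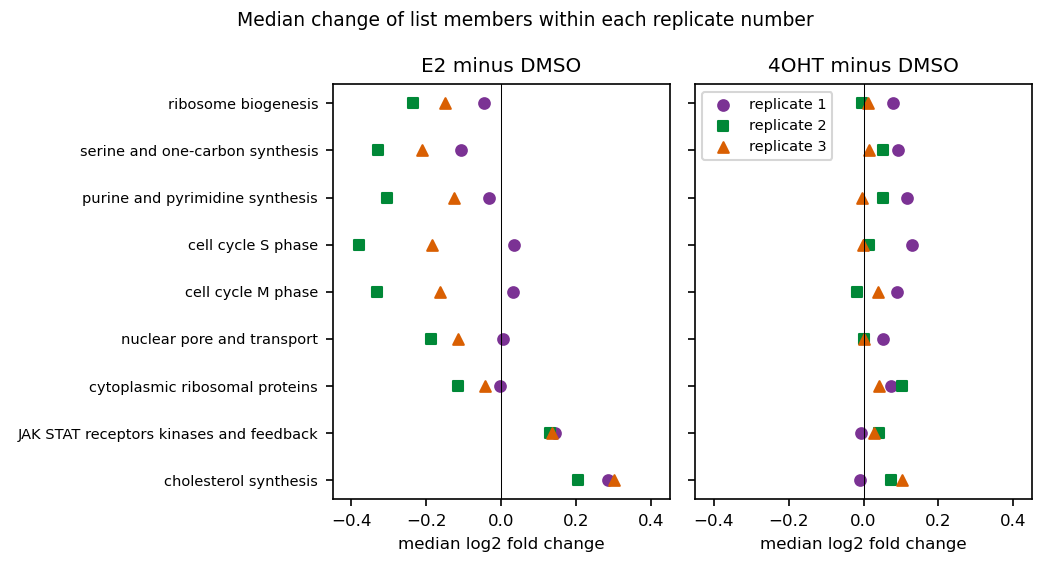
The median log2 fold change over the tested members of 9 gene lists is shown within each replicate number, for E2 minus DMSO (left) and 4OHT minus DMSO (right), with 1 symbol per replicate. In E2 the growth lists lie between 0.035 and -0.38 and are nearest to 0 in replicate 1, while cholesterol synthesis lies between 0.21 and 0.30.

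Genes that make the building blocks of protein and nucleic acids were also among the falls. Both lists of this kind were added after the data were examined. Of 16 genes for the synthesis of serine and one-carbon units 9 fell (56.3%) and 0 rose, with a median log2 fold change of -0.21. *Phgdh*, the enzyme of the first step from glycolysis to serine, had FPKM of 281, 261 and 275 in DMSO and of 233, 207 and 238 in E2. No E2 sample reached the lowest DMSO sample (log2 fold change -0.27, SE 0.048, adjusted p = 0.00600). *Psat1*, the next enzyme, differed more between replicates, with 31.3, 66.9 and 54.9 in DMSO and 25.99, 41.7 and 42.1 in E2 (log2 fold change -0.43, SE 0.075, adjusted p = 0.00507). *Shmt1* and *Shmt2*, which pass a carbon from serine to folate in the cytosol and in mitochondria, fell by 0.37 and 0.32, and *Ahcy*, which clears the product of methyl transfer, fell by 0.28 on the log2 scale. Of 28 genes for purines and pyrimidines 10 fell (35.7%) and 1 rose, with a median of -0.15. *Cad*, which carries out the first steps of pyrimidine synthesis, had FPKM of 33.6, 49.6 and 41.4 in DMSO and of 29.4, 40.8 and 28.9 in E2 (log2 fold change -0.32, SE 0.056, adjusted p = 0.00526). *Dctpp1*, a phosphatase that cleans the pool of deoxycytidine triphosphate, went from 42.1, 61.2 and 47.1 to 31.5, 38.7 and 36.1 without overlap (log2 fold change -0.48, SE 0.071, adjusted p = 0.00235). *Pfas*, an enzyme of purine synthesis, fell by 0.51, mostly in replicate 3, where it went from 16.7 to 7.61 FPKM. The 1 rise was *Cmpk1*, a nucleotide kinase (log2 fold change 0.24).

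*Phgdh*, *Psat1*, *Cad* and *Dctpp1* passed in all 6 fits that left out 1 sample. *Shmt1*, *Shmt2* and *Ahcy* were lost without DMSO replicate 2 or 3, *Shmt1* also without E2 replicate 2, *Shmt2* also without E2 replicate 3, and *Pfas* was lost without DMSO replicate 1 or 3 or E2 replicate 2 or 3. The number of fallen members was 3 without DMSO replicate 2 for both lists, 3 (serine) and 2 (nucleotides) without DMSO replicate 3, 6 and 3 without E2 replicate 2, and 5 and 3 without E2 replicate 3. Of the wider list of genes that respond to lack of amino acids, 7 of 37 fell (18.9%) and 1 rose, *Vldlr* (log2 fold change 0.63). *Psat1*, *Shmt2* and *Phgdh* led these falls too, which numbered 3 without DMSO replicate 2 and 4 without DMSO replicate 3 or E2 replicate 3.

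Some regulators of growth were among the falls. Of 22 D cyclins and inhibitors of their kinases 1 fell (4.55%) and 1 rose (4.55%), with a median log2 fold change of 0.038. Of 11 MYC and MAX network genes 2 fell (18.2%) and 1 rose (9.09%), with a median of -0.021. That list was added after the data were examined. Over all genes tested 7.08% fell and 12.4% rose. Without DMSO replicate 2 or 3 the MYC and MAX falls numbered 1. *Ccnd1*, the cyclin that carries cells out of the first gap phase and a classical estrogen-induced gene in breast cells, lies on chromosome 7 of GRCm38 from 144929931 to 144939925. Its FPKM was 111, 271 and 192 in DMSO, 83.2, 161 and 141 in E2, and 135, 267 and 192 in 4OHT. The replicates differed more than the conditions did, and the E2 sample was the lowest of its replicate each time (log2 fold change -0.54, SE 0.074, adjusted p = 0.00162). *Myc*, which drives ribosome and nucleotide synthesis, had 55.8, 98.1 and 78.5 in DMSO and 50.6, 73.7 and 67.0 in E2 (log2 fold change -0.26, SE 0.059, adjusted p = 0.0180). It was lost without DMSO replicate 2 and without DMSO replicate 3. *Tfap4*, a helix-loop-helix factor and known target of Myc, had 6.27, 9.51 and 7.65 in DMSO and 5.27, 5.88 and 5.07 in E2, without overlap (log2 fold change -0.45, SE 0.074, adjusted p = 0.00408). *Mycn*, a close relative of *Myc*, rose instead (log2 fold change 0.35, SE 0.056, adjusted p = 0.00395). *Hmga1*, a chromatin protein of dividing cells, was high in replicate 2 of every condition, and went from 43.9, 92.2 and 41.8 to 32.6, 52.5 and 29.6 (log2 fold change -0.57, SE 0.077, adjusted p = 0.00154), and its processed copies in the genome may share reads with it. Of 23 classical estrogen targets that were measured, 8 rose (34.8%) and 4 fell (17.4%). The 4 falls were those of *Ccnd1*, *Myc*, *Vegfa* (log2 fold change -0.32), the angiogenic growth factor, and *Cited2* (-0.16), a coactivator, which was lost in 5 of the 6 fits, and the falls numbered 2 without DMSO replicate 2 or 3.

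**Figure D3:**
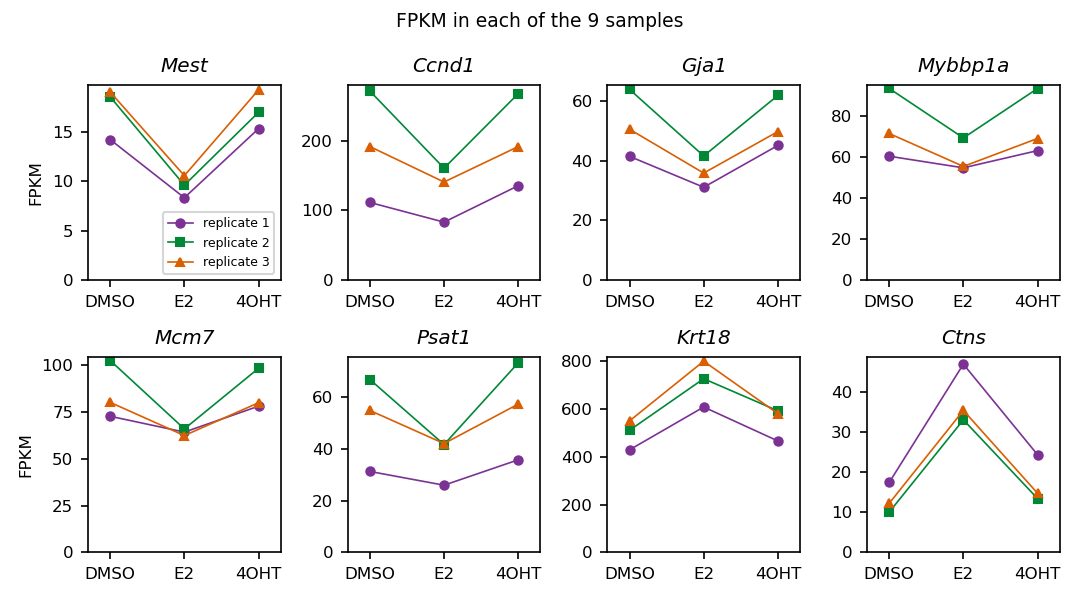
FPKM of 8 genes in each of the 9 samples, with 1 line per replicate number across DMSO, E2 and 4OHT and each vertical axis starting at 0. In *Mest*, *Ccnd1*, *Gja1*, *Mybbp1a*, *Mcm7* and *Psat1* each line dips at E2, and in *Krt18* and *Ctns* each line peaks there.

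The 25 largest falls outside the genes named by the study had log2 fold changes from -1.84 to -0.44. They were chosen among genes lower in all 3 pairs, so the shared sign of the pairs is not a result. *Gja1*, the gap junction protein connexin 43, had FPKM of 41.4, 63.8 and 50.5 in DMSO, of 31.1, 41.5 and 35.8 in E2 and of 45.04, 61.8 and 49.7 in 4OHT. Only the highest E2 sample reached the lowest DMSO sample, and each pair fell (log2 fold change -0.50, SE 0.045, adjusted p = 0.000198). *Ccl17*, a chemokine that draws T cells, went from 6.16, 5.29 and 7.71 to 4.23, 1.72 and 4.43, with all E2 samples below all DMSO samples (log2 fold change -0.78, SE 0.12, adjusted p = 0.00231). *Itgb2*, the β chain of leukocyte integrins, went from 2.81, 4.39 and 3.56 to 1.34, 2.78 and 2.53 (log2 fold change -0.53, adjusted p = 0.00167), in samples in which *Ptprc* was near 0.

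*Tnnc2*, the calcium-binding troponin of fast muscle, had 8.68, 12.2 and 9.53 in DMSO and 6.29, 6.88 and 6.602 in E2, without overlap (log2 fold change -0.54, adjusted p = 0.000699). *Cacna1g*, a low-voltage calcium channel, varied widely between replicates and still fell in each pair, from 10.0, 6.06 and 17.9 to 6.46, 4.59 and 11.6 (log2 fold change -0.49, adjusted p = 0.000464). *Rapgef3*, a guanine exchange factor that cyclic AMP activates, fell from 7.996, 8.97 and 9.59 to 5.10, 6.39 and 6.53 (log2 fold change -0.50, adjusted p = 0.000791). *Abcb1b*, a drug efflux pump, *Ablim1*, an actin-binding LIM protein, *Entpd5*, a nucleotide phosphatase of the endoplasmic reticulum, and *Aim1* fell by 0.47 to 0.49 on the log2 scale. *Slpi*, a secreted inhibitor of leukocyte proteases, fell by 0.46, *Pcolce2*, an enhancer of procollagen cleavage, by 0.52, and *Psca*, a surface antigen of secretory epithelia, by 0.44. Of the genes in this list, *Pcolce2* was lost without DMSO replicate 3, *Slpi* without DMSO replicate 2 or 3, and *Psca* without DMSO replicate 1 or 3 or E2 replicate 1 or 2.

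The largest fall of all was that of the microRNA row *Mir1896* (FPKM of 189, 85.6 and 116 in DMSO and 40.8, 18.1 and 51.5 in E2, log2 fold change -1.84, SE 0.25, adjusted p = 0.00154), followed by the small nucleolar RNA row *Snord12* (log2 fold change -0.95), and *Mir1199* also appeared (-0.66). Such rows are shorter than a sequenced fragment, and their FPKM is uncertain. *Snord12* was lost without E2 replicate 1 or 3 and *Mir1199* without DMSO replicate 2, and *Snord12* was also lower in 4OHT than in DMSO, with a log2 fold change of -0.59.

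**Figure D4:**
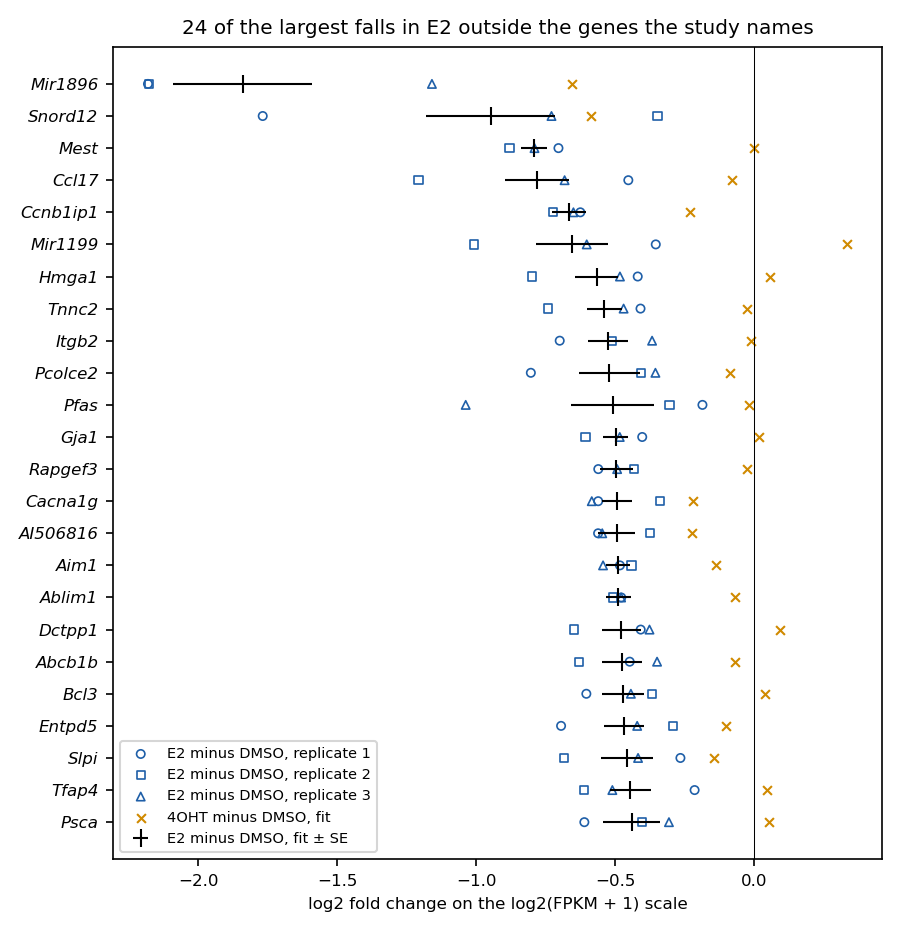
For each of 24 of these 25 genes, open symbols give the log2 fold change, E2 minus DMSO, in each replicate pair, the black mark gives the fitted value with its SE, and the orange cross gives the fitted value for 4OHT minus DMSO. All open symbols lie left of 0, and for *Mest* the 4OHT value is at 0.

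Stress genes moved both ways. Of 33 p53 targets 8 fell (24.2%) and 3 rose (9.09%). *Trp53*, which encodes p53 itself, had FPKM of 104, 129 and 102 in DMSO and of 88.1, 99.1 and 84.2 in E2, without overlap (log2 fold change -0.29, SE 0.038, adjusted p = 0.00125). *Mdm2*, its inhibitor and target, fell in parallel from 139, 164 and 128 to 117, 133 and 107 (log2 fold change -0.27, SE 0.033, adjusted p = 0.000979). *Plk2* and *Plk3*, kinases of the stress response, fell by 0.27 and 0.28 on the log2 scale, and *Gadd45a*, a growth arrest gene, rose by 0.43. The p53 falls numbered 4 and the rises 1 without DMSO replicate 2 or 3, and 5 and 1 without E2 replicate 3, and *Plk3* was lost without these or without E2 replicate 2 or 3. Of 39 antioxidant genes of the NRF2 pathway 7 fell (17.9%, against 7.08% of all genes tested) and 7 rose (17.9%, against 12.4%). *Txnrd1*, thioredoxin reductase, went from 363, 399 and 352 to 294, 327 and 284 without overlap (log2 fold change -0.30, adjusted p = 0.000725), and *Osgin1*, an oxidative stress gene, from 21.1, 22.3 and 21.0 to 17.9, 16.3 and 15.6 (log2 fold change -0.35, adjusted p = 0.00229). On the rising side stood *Gpx3*, a secreted glutathione peroxidase (log2 fold change 0.39), and *Gclc*, the enzyme that limits glutathione synthesis (0.37). The falls of this list numbered 3 without DMSO replicate 1, DMSO replicate 3 or E2 replicate 1 and 4 without E2 replicate 3, and the rises 4 without DMSO replicate 2 and 3 without DMSO replicate 3 or E2 replicate 3. The paralogs *Gsta1* and *Gsta2*, whose reads may not be separable, both had -0.37 and were lost in 4 and 5 of the 6 fits.

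Inflammatory genes split in both directions. Of 19 NF-kappaB subunits, inhibitors and targets 5 fell (26.3%, against 7.08% of all genes tested) and 3 rose (15.8%, against 12.4%). *Bcl3*, a nuclear partner of NF-kappaB, had FPKM of 6.16, 5.24 and 6.43 in DMSO and of 3.71, 3.83 and 4.46 in E2, without overlap (log2 fold change -0.47, SE 0.077, adjusted p = 0.00395). *Nfkbiz*, a related nuclear cofactor, fell by 0.29 and *Tnfaip2*, an NF-kappaB target, by 0.36, while the inhibitor *Nfkbia* rose by 1.21 and the inhibitor *Tnfaip3* by 0.41. *Il34*, a ligand of the macrophage receptor Csf1r, fell from 9.13, 8.64 and 10.5 to 5.78, 6.96 and 8.17 (log2 fold change -0.39, adjusted p = 0.00773), and its fellow ligand *Csf1* by 0.18. The neutrophil chemokine *Cxcl1* fell by 0.33 and *Cx3cl1* by 0.29, against rises of *Csf2* (log2 fold change 2.23) and *Il15* (0.43). *Nfkbiz*, *Csf1* and *Cx3cl1* were lost without DMSO replicate 2 or 3 or E2 replicate 3. The counts of falls among NF-kappaB genes were 2 without each of these 3 samples.

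Epithelial genes moved in both directions. The 4 keratins of simple epithelia rose, also under each scaling, and several junction proteins fell. *Krt18* went from 428, 510 and 549 to 607, 725 and 799 FPKM without overlap (log2 fold change 0.52, SE 0.041, adjusted p = 1.00e-04), *Krt19* had a log2 fold change of 0.51 and *Krt8* of 0.44. Of 23 measured keratins and junction genes 7 rose (30.4%) and 6 fell (26.1%), so the rises were not confined to these 4 keratins. Among those that fell were *Gja1*, *Ppl* (periplakin, log2 fold change -0.34), *Evpl* (envoplakin, -0.32) and *Cgn* (cingulin of tight junctions, -0.33), and *Ppl* was lost without DMSO replicate 1 or 3 or E2 replicate 3, and *Evpl* without DMSO replicate 3. With upper-quartile scaling 5 of this list rose and 7 fell, and without DMSO replicate 3 the counts were 4 and 3. *Foxj1*, the master factor of ciliated cells, was present in this secretory line and fell from 13.6, 15.3 and 15.9 to 8.95, 11.7 and 13.0, with no overlap (log2 fold change -0.40, SE 0.065, adjusted p = 0.00401). Of 9 tested rows of the ciliated list 1 fell, *Foxj1*, and 1 rose, the cilium gene *Rsph1*, from 3.10, 3.21 and 2.98 to 3.65, 3.86 and 3.52 (log2 fold change 0.19, adjusted p = 0.0416), which was lost in each fit without 1 sample and with upper-quartile scaling or equal totals. The axonemal genes *Dnaic1*, *Spag6* and *Hydin* were at most 0.171 FPKM, and *Rfx2*, *Rfx3*, *Ccdc39* and *Tekt2* lay between 0.720 and 2.41. The tubulin genes of the list were high and not called, *Tubb4b* at 395 to 561 and *Tuba1a* at 598 to 767. They made up most of the summed FPKM of the list, 1029.7 to 1248.5 in DMSO and 1076.1 to 1107.8 in E2. In bulk RNA, fewer cells of a kind and less RNA per cell cannot be told apart. Of 38 extracellular matrix genes 10 rose (26.3%, against 12.4% of all genes tested) and 8 fell (21.1%, against 7.08%). *Lamb3*, a chain of an epithelial laminin, rose (log2 fold change 0.94). *Col7a1*, the anchoring fibril collagen, and *Col18a1*, the source of endostatin, fell (-0.33 and -0.29). Without DMSO replicate 3 the falls in this list numbered 2, without DMSO replicate 2 or E2 replicate 1 they numbered 3, without E2 replicate 3 they numbered 5, and *Col7a1* was lost without DMSO replicate 2 or E2 replicate 1 or 2. Of 28 Wnt ligands, receptors and targets 5 rose (17.9%), led by *Dkk3*, a secreted protein of the Dickkopf family (0.39), and 3 fell (10.7%), led by the ligand *Wnt10b* (-0.42) and the Wnt effector *Lef1* (-0.32). The rises numbered 3 without DMSO replicate 1, DMSO replicate 2 or E2 replicate 1 and 2 without DMSO or E2 replicate 3. Of 13 Notch pathway genes 2 rose (15.4%), *Maml2*, a coactivator (0.44), and *Hes1*, a target (0.20). The receptor *Notch1* was the 1 that fell (7.69%, log2 fold change -0.28). Over all genes tested 12.4% rose and 7.08% fell, so the Wnt and Notch shares were only a little above those of all genes. The Notch list had 1 rise without DMSO replicate 2 or 3 or E2 replicate 3 and 2 falls without E2 replicate 1. *Lef1* was lost without DMSO or E2 replicate 1 and *Notch1* without DMSO or E2 replicate 3.

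Of 36 measured contractile actin genes and targets of SRF, a factor that binds the CArG box, 15 rose (41.7%) and 4 fell, and 0 rose and 1 fell without the block. *Vcl*, vinculin, had FPKM of 192, 212 and 236 in DMSO and of 248, 302 and 302 in E2, without overlap (log2 fold change 0.41, SE 0.041, adjusted p = 0.000329). *Csrp1*, *Tagln* and *Acta2* rose by 0.40, 0.37 and 0.36 on the log2 scale, and *Tagln* and *Acta2* were 0.29 and 0.27 higher in 4OHT, which did not pass there. Against them *Lmcd1*, *Cnn1* (calponin, -0.43), *Mylk* (the myosin light chain kinase, -0.36) and *Mkl1* (an actin-regulated SRF coactivator, -0.18) fell. *Cnn1* was lost without DMSO replicate 2 or E2 replicate 1 or 2 and *Mkl1* without DMSO replicate 3 or E2 replicate 1 or 3, and the count of rises was 9 without DMSO replicate 2 or 3 and 10 without DMSO replicate 1 or E2 replicate 3, with 2 falls without E2 replicate 1. The promoter window of a CArG gene that fell and of one that rose are shown to set the same element beside opposite changes, with the element in capitals. They come from RefSeq (GRCm38.p6) and run 5′ to 3′ on the plus strand, *Lmcd1* at chr6:112273508-112273807 and *Vcl* at chr14:20929148-20929447.
*Lmcd1*: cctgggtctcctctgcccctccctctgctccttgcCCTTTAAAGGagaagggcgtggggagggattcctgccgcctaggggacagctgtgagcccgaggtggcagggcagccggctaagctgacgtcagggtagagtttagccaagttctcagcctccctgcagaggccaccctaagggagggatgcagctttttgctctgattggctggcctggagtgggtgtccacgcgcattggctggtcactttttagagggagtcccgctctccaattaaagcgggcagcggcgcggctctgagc
*Vcl*: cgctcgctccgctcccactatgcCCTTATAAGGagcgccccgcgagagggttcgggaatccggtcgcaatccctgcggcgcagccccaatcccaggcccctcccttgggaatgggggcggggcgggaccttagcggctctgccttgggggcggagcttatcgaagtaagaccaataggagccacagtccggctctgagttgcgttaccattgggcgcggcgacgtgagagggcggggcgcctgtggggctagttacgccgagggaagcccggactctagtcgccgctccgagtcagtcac
A CArG box stood in 13 of 40 promoter windows of this list (32.5%). The list holds known SRF targets, so a high share in it was partly set by that choice. The box stood in 6 of 723 windows of fallen genes (0.83%) and 27 of 1325 windows of risen genes (2.04%). It stood in 127 of 9754 windows of tested genes (1.3%) and in 535 of all 32851 windows (1.63%). A window held 300 bases, and 538 of 770 fallen, 956 of 1355 risen and 7606 of 10849 tested genes with 1 row had at least 1 window.

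The AP-1 element, searched as TGACTCA on both strands, is the second pair. This element stood in 38 windows of fallen genes (5.26%), 54 of risen genes (4.08%), 353 of tested genes (3.62%) and 1709 of all windows (5.2%). *Gja1* (fallen, plus strand, chr10:56377050-56377349) and *Sprr1a* (risen, minus strand, chr3:92485832-92486131) are shown, with the element in capitals as read on the other strand.
*Gja1*: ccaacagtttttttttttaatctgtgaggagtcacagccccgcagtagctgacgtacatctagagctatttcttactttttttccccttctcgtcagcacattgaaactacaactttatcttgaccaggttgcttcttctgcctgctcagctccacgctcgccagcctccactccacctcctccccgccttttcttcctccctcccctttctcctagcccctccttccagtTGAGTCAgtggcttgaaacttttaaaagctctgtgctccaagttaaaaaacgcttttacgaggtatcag
*Sprr1a*: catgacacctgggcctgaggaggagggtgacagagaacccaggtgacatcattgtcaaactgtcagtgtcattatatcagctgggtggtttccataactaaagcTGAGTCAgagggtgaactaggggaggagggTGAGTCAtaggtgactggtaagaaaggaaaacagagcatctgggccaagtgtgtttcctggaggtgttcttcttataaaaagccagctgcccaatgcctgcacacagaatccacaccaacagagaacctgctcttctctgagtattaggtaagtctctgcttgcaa
The E-box CACGTG, which Myc and other factors bind, stood in 9.82% of windows of fallen, 9.58% of risen and 10% of tested genes, and in 12 of 78 windows of the ribosome biogenesis list (15.4%). The full palindromic estrogen response element stood in 0 of the 9754 windows of tested genes and in 23 of all windows (0.07%). The interferon-stimulated element stood in 3.04% of fallen, 2.72% of risen and 2.68% of tested windows, and the hypoxia element ACGTG, which lies within every CACGTG, in 23.9%, 25.1% and 25.9%. These matches are letters in a window and no test was made of them.

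Cholesterol synthesis had the largest share of rises among the lists with at least 10 measured genes. The pathway builds cholesterol from acetyl units under control of the SREBP factors. Of 24 measured genes 21 rose (87.5%) and 1 fell, with a median log2 fold change of 0.26 and medians of 0.29, 0.21 and 0.30 in the 3 pairs. *Hsd17b7*, which acts in cholesterol synthesis and also converts estrone to estradiol, had FPKM of 17.9, 13.5 and 13.7 in DMSO and of 26.1, 19.4 and 20.9 in E2, without overlap (log2 fold change 0.53, SE 0.043, adjusted p = 0.000117). *Stard4*, which carries cholesterol between membranes, and *Sc4mol* (also *Msmo1*), a demethylating oxidase, rose by 0.42 and 0.39. The rises numbered 13 without DMSO replicate 3, 15 without E2 replicate 3 and 16 without DMSO replicate 2, and 0 without the block. Of 20 fatty acid synthesis genes 7 rose (35.0%, against 12.4% of all genes tested) and 0 fell (1 under each of the 3 scalings). The rises were led by *Acss2* (0.41), which makes acetyl-CoA from acetate, and *Me1* (0.38), which supplies NADPH.

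Of 30 JAK and STAT pathway genes 12 rose (40.0%) and 0 fell. *Ghr*, the growth hormone receptor, went from 44.4, 39.8 and 36.8 to 83.5, 81.1 and 76.5 FPKM (log2 fold change 0.98, SE 0.043, adjusted p = 4.79e-06), *Jak2*, its kinase, from 30.6, 19.5 and 19.3 to 54.2, 41.0 and 36.5 (log2 fold change 0.91), and *Stat5a*, the factor they activate, from 4.77, 3.45 and 3.39 to 9.16, 6.10 and 5.47 (log2 fold change 0.68, adjusted p = 0.000488). None of these groups overlapped. The rises numbered 7 without DMSO replicate 2 and 8 without DMSO replicate 3, and 1 gene fell in the fits without DMSO replicate 1, DMSO replicate 3 or E2 replicate 3 and with upper-quartile scaling or median centring. Of 35 genes of endoplasmic reticulum stress and folding 11 rose (31.4%) and 0 fell (1 under each of the 3 scalings). The rises were led by *Ern1*, the stress sensor (log2 fold change 0.79), and *Xbp1*, the factor it activates (0.52). Their number was 7 without DMSO replicate 2 and 6 without DMSO replicate 3.

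Of 43 genes of lysosomes and autophagy 11 rose (25.6%) and 0 fell. *Neu1*, a sialidase, had a log2 fold change of 0.54 and *Ctsb*, cathepsin B, of 0.49, and the list numbered 2 without DMSO replicate 2, without DMSO replicate 3 or without E2 replicate 3. *Ctns*, the cystine exporter of lysosomes, was outside this list and rose more, from 17.5, 10.1 and 12.3 to 47.0, 33.1 and 35.4 FPKM (log2 fold change 1.49, SE 0.064, adjusted p = 4.79e-06). *Shpk*, a sugar kinase, rose with it from 2.83, 1.38 and 1.24 to 8.14, 5.36 and 5.14 (log2 fold change 1.38, SE 0.059, adjusted p = 4.79e-06). They are neighbours on chromosome 11 of GRCm38, *Ctns* on the minus strand from 73183596 to 73199042 and *Shpk* on the plus strand from 73199460 to 73224511, so that their annotated starts face away from each other.

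Of 19 genes of retinoic acid synthesis and response 9 rose (47.4%) and 2 fell, and 4 fell under each of the 3 scalings. *Rdh10*, which makes retinal, had FPKM of 44.8, 37.3 and 43.7 in DMSO and of 76.3, 58.2 and 73.7 in E2, without overlap (log2 fold change 0.71, SE 0.038, adjusted p = 1.35e-05). The 2 falls were those of *Cyp26a1*, the enzyme that breaks retinoic acid down (-0.75), and *Stra6*, a retinol importer (-0.31). Of 14 vasoactive peptides and receptors 8 rose (57.1%, against 12.4% of all genes tested) and 2 fell (14.3%, against 7.08%). All 3 natriuretic peptide receptors were among the rises, *Npr2* by 0.81, *Npr1* by 0.73 and *Npr3* by 0.56 on the log2 scale. *Npr2* had FPKM of 49.2, 37.1 and 41.4 in DMSO, of 76.1, 77.0 and 72.0 in E2 and of 35.5, 34.2 and 37.4 in 4OHT. Of 38 glycosyltransferases 13 rose (34.2%) and 2 fell (1 without DMSO replicate 1, 2 or 3 or E2 replicate 1), with *B3gnt7*, which extends keratan chains, at 1.11. Of 14 Müllerian and oviduct transcription factors 6 rose (42.9%), among them *Sox9* (0.77) and *Msx2* (0.62), and 0 fell (1 without E2 replicate 2).

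**Figure D5:**
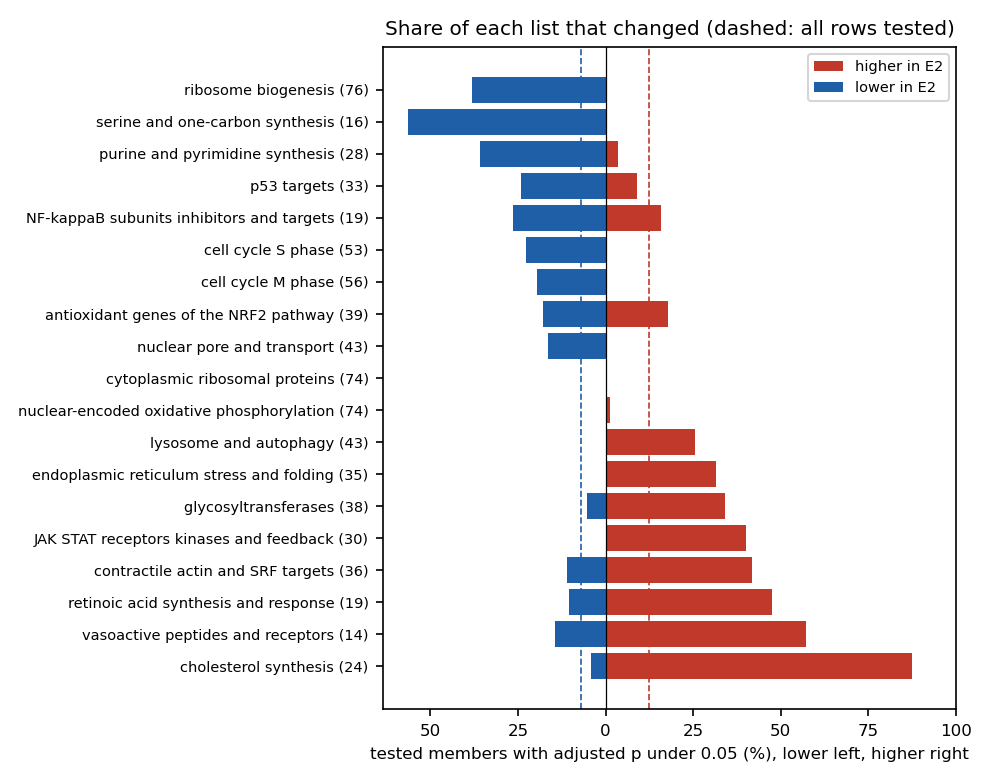
For each of 19 gene lists, with the number of tested members in brackets, the bars give the percent of members lower in E2 (left, blue) and higher in E2 (right, red), and the dashed lines give the same over all 11094 rows, 7.08% and 12.4%. Serine and one-carbon synthesis has 56.3% lower and 0 higher, ribosome biogenesis 38.2% lower and 0 higher, and cholesterol synthesis 87.5% higher and 4.17% lower.

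Early response genes gave a mixed picture. Of 19 such genes 8 rose (42.1%), led by *Fos* (1.28), *Ier3* (0.71), *Maff* (0.67) and *Fosb* (0.62), and 3 fell (15.8%), *Fosl1* (-0.42), *Myc* and *Klf10* (-0.16). With a sample left out, *Fosl1* and *Klf10* were lost in 5 of the 6 fits, and the falls of this list numbered 0 without DMSO replicate 2 or 3 and 1 without E2 replicate 1 or 3. Of 19 measured feedback genes of the MAP kinase cascade 4 rose (21.1%) and 2 fell (10.5%), against 12.4% and 7.08% of all genes tested. The median of that list was -0.0002. *Dusp1* (0.88), *Dusp2* (0.88) and *Errfi1* (0.65) were higher. *Dusp6*, a target of ERK activity, was lower (log2 fold change -0.22, SE 0.038, adjusted p = 0.00560). The falls in that list numbered 1 without DMSO replicate 2 or 3 or any 1 of the E2 samples. Genes of nuclear-encoded oxidative phosphorylation had 1 of 74 higher, *Ndufa6* (0.14, chosen after its value was seen), and 0 lower in the limma fit, and a median of -0.0057, and this rise passed in 1 of the 6 fits without 1 sample.

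The 20 largest rises outside the genes named by the study ranged from 1.24 to 2.44. *Tspan13*, a tetraspanin, had FPKM of 38.9, 9.60 and 8.20 in DMSO and of 110, 60.2 and 61.8 in E2 (log2 fold change 2.26, SE 0.20, adjusted p = 0.000176). *Sprr1a*, a cornified envelope precursor, had 506, 173 and 101 in DMSO and 1347, 1052 and 679 in E2 (log2 fold change 2.25, SE 0.21, adjusted p = 0.000220). Replicate 1 was the highest in DMSO and in E2 for both, and the E2 samples were still above all DMSO samples. *Slc14a1*, a urea transporter, went from 14.1, 16.2 and 21.3 to 36.8, 67.2 and 53.9 (log2 fold change 1.54), and *Lpar1*, a receptor of lysophosphatidic acid, from 23.8, 10.7 and 11.5 to 55.3, 39.1 and 39.5 (log2 fold change 1.55). *Gdf6*, a ligand of the BMP family, rose by 1.64, *Inmt*, an amine methyltransferase, by 1.57, *Ntn1*, the guidance cue netrin 1, by 1.28, *Blnk*, an adaptor of B cell signalling, by 1.32 and *Lxn*, an inhibitor of carboxypeptidases, by 1.25 on the log2 scale. Of these, *Gdf6*, *Inmt* and *Blnk* overlapped with DMSO replicate 1. *Mir682* also rose (1.78) and was lost without DMSO replicate 2 or 3.

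Of the 51 gene rows that the study names and that were tested here, 31 were higher and 14 lower in E2. Over all genes tested 19.5% were called in either direction. Many of the named genes are in the study's tables of genes that changed in these same samples, so a high share was set by that choice. The other 771 of the 785 falls and 1346 of the 1377 rises concern genes that the study does not name. The study called genes with another test, cuffdiff, and its full lists were not compared here. Some of these genes may therefore be among its calls.

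In 4OHT the fallen genes had a median log2 fold change of -0.0075 against DMSO and the risen genes of 0.060, beside 0.025 over all genes tested. In the same fit 5 genes (0.0451%) passed for 4OHT, *Tmem20*, *Csf2*, *Padi2*, *Serpinb9b* and *Bnc1*, all higher, and 1539 had an unadjusted p under 0.05. E2 and 4OHT were compared with the same 3 DMSO samples, so these values stand side by side and are not independent. Falls in E2 without a like change in 4OHT included *Mest* (-0.79 and -0.00074), *Gja1* (-0.50 and 0.017) and *Ccnd1* (-0.54 and 0.086). *Mylk* fell by 0.36 in E2 and had a value of -0.40 in 4OHT.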

How the data were processed

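RNA was sequenced from 9 samples of FVB MOE cells, 3 each with DMSO, E2 and 4OHT, as poly(A)-selected, strand-specific single-end libraries. The authors removed adapters and poor reads, used TopHat2 2.0.8b for alignment to mm10, computed FPKM per gene with the Cufflinks suite (Cuffdiff 2.1.1) on UCSC annotation, and deposited 1 table of FPKM per sample (versions from the submitters' processing notes). The deposited files hold no read counts, so counting precision was not computed, and whether the counting used strand is not given in the sources used here.

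Of 11339 rows with at least 1 FPKM in 3 samples, 245 with an exact 0 were left out because such a 0 can be a failed estimate, which left 11094. log2(FPKM + 1) was fitted with limma 3.58.1 (R 4.3.3) with 1 coefficient per condition, the replicate number as a block, all 9 samples and a variance trend, with Benjamini-Hochberg adjustment over all rows and a threshold of 0.05. The pairing was set by the replicate number in the labels. Same-numbered E2 and DMSO samples deviated together from their group means (correlations 0.789, 0.571 and 0.732). No pair of libraries was a duplicate. Length and GC came from GENCODE M21 (GRCm38) for 10999 rows, and promoters from RefSeq (GRCm38.p6). The scripts were tested on simulated data.

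Genes were named by rule: the 25 falls and 20 rises of largest size with the same sign in every pair, outside genes the study names and rows of uncertain identity, and up to 4 members per list and direction. Members and lists were chosen with earlier results of these data known, and 4 lists (serine and one-carbon, purine and pyrimidine, RNA polymerase I and III, MYC and MAX) were added after values were seen. Alternatives covered the block, samples, scaling, pseudocount, filter, variance trend, threshold, and each sample or replicate left out. Some items are not reported here, among them 1 of the 25 falls.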

Additional observations from a re-analysis of the deposited data

How the results depend on the processing

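The calls held more rises than falls (1377 and 785) on the deposited values and fewer under upper-quartile scaling (1203 and 1339) and equal FPKM totals (1208 and 1232), and in the keratin and junction list 7 rises and 6 falls became 5 and 7 under the former. Without the replicate block, that is without pairing, the calls fell from 2162 to 67 (64 higher, 3 lower), with 0 members called in ribosome biogenesis, S phase, M phase, nuclear pore or cholesterol synthesis. Fitted on the 6 compared samples alone, 1381 genes were called and 410 were lower, with 10, 5, 5 and 2 falls in ribosome biogenesis, S phase, M phase and nuclear pore. At an adjusted p under 0.01 the counts were 942 in all, 717 higher and 225 lower, with 6, 3, 1 and 2 in those 4 lists and 14 rises in cholesterol synthesis. Upper-quartile scaling gave 1339 falls (45, 22, 26 and 18 in those lists), equal FPKM totals 1232 (42, 22, 24 and 17), and median centring 18 M phase and 11 nuclear pore falls. Keeping exact zeros gave 17, 5, 6 and 5, no filter on low values 20, 6, 9 and 6, no variance trend 22, 6, 11 and 6, and the GC and length correction, fitted with the block, 33, 14, 16 and 10. The causes were not tested.

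Leaving out 1 sample or 1 replicate number gave 735 to 1976 calls, 573 to 1249 higher and 162 to 822 lower, with 1 to 37 falls in ribosome biogenesis, 1 to 33 in S phase, 0 to 40 in M phase, 1 to 15 in the nuclear pore list and 10 to 22 rises in cholesterol synthesis. The lowest counts came without replicate 3. Of 298 named genes 30 kept their call without the block, 190 to 275 in the fits that left out samples, and 255 to 298 in the remaining fits. The expression tables hold no read counts, and no limit from depth was computed here.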

Other observations

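Cues and receptors that cells use to sense each other moved in both directions. Of 26 measured guidance cues and their receptors 5 rose (19.2%, against 12.4% of all genes tested) and 6 fell (23.1%, against 7.08%). The secreted semaphorin *Sema3f* had FPKM of 71.2, 43.7 and 50.5 in DMSO and of 112, 87.1 and 96.0 in E2, without overlap (log2 fold change 0.85, adjusted p = 4.50e-05 in the limma fit), and *Sema3c* and *Sema4a* rose by 1.02 and 0.72. On the other side *Plxnb1*, a semaphorin receptor, went from 7.96, 6.21 and 8.665 to 5.45, 5.45 and 6.61 (log2 fold change -0.33, adjusted p = 0.00627), and *Sema4d*, a ligand of that receptor, fell by 0.22 on the log2 scale. All 5 of these passed in each of the fits without 1 sample, whereas *Sema3b* (-0.21) passed in none of them, and the falls of the list numbered 3 without DMSO replicate 2, DMSO replicate 3 or E2 replicate 3.

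Of 29 receptor tyrosine kinases and ligands 4 rose (13.8%, against 12.4% of all genes tested) and 5 fell (17.2%, against 7.08%). *Axl*, the receptor of Gas6, had FPKM of 98.4, 128 and 99.1 in DMSO and of 74.9, 99.8 and 81.7 in E2 (log2 fold change -0.34, adjusted p = 0.000711), and *Met*, the receptor of hepatocyte growth factor, went from 36.3, 40.3 and 34.7 to 32.2, 32.2 and 30.0 without overlap (log2 fold change -0.23, adjusted p = 0.00631). *Kit*, the receptor of stem cell factor, rose (log2 fold change 1.02). The falls numbered 3 without DMSO replicate 2, DMSO replicate 3, E2 replicate 1 or E2 replicate 3. *Nrg1*, a ligand of the EGF receptor family, fell in each pair, from 75.6, 86.7 and 83.6 to 65.3, 75.7 and 73.0 (log2 fold change -0.20, adjusted p = 0.00510).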
